A study of Oryza sativa with 24 samples.

Results

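The 6 rice genes described here act in the making, relay and perception of salicylic acid, and were taken by name and locus identifier. They are ICS1 (LOC_Os09g19734), EDS1 (LOC_Os09g22450), PAD4 (LOC_Os11g09010), NPR1 (LOC_Os01g09800), NPR2 (LOC_Os01g56200) and NPR3 (LOC_Os03g46440). They are 6 of the 55801 genes listed in the deposited expression table, and all 6 were among the 18871 genes that reached 1 FPKM in at least 2 libraries and were tested. FPKM is the number of sequenced fragments per unit of gene length and of library depth, so levels of different genes can be set side by side. No member passed the test in any comparison of the edited Fix plants with their parent hybrid. As deposited, NPR2 was below the hybrid in all 10 Fix libraries, as were 4.71% of all tested genes, EDS1 was among the least varying genes and PAD4 was the member that varied most. After the libraries were rescaled by median-of-ratios factors, 1 Fix library lay above the hybrid for NPR2. EDS1 was then above the hybrid in all 10 Fix libraries, as were 4.44% of all tested genes. The share of tested genes that varied less than EDS1 was then 9.31%, against 1.09% as deposited.

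Salicylic acid is the plant hormone of defence against pathogens that feed on living tissue. It can be made from chorismate through isochorismate synthase, encoded by ICS1, or from phenylalanine through phenylalanine ammonia-lyase. In Arabidopsis, the lipase-like proteins EDS1 and PAD4 form a complex that relays signals from immune receptors and raises salicylate, and NPR1 is a coactivator that works with TGA transcription factors to switch on pathogenesis-related (PR) genes. Rice carries NPR1 and the relatives NPR2 and NPR3, and its leaves are known for a high salicylate content in the absence of infection.

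The study asked how stably a hybrid rice that reproduces through clonal seed keeps its state over generations. Flag leaves, the uppermost leaves below the panicle, were taken at heading, and their total RNA was sequenced. The Fix lines are edited plants of Chunyou84 (CY84), a hybrid of the japonica male-sterile line Chunjiang 16 A with C84, a line between indica and japonica. As known for Fix plants, the edits inactivate REC8, PAIR1 and OSD1, which turns meiosis into a mitosis-like division, and MTL, which lets seed form without a paternal genome. The groups were Fix T0, the founding edited plants, Fix T1, T2, T3 and T4, the successive generations grown from its seed, and the unedited CY84, with 2 libraries each. At each seed generation diploid plants were selected by flow cytometry. Fix T0 and CY84 were carried over through their roots and the later generations came from seed, so seed generation and way of propagation cannot be told apart. All Fix groups descend from the same edited material, and the number of plants behind a library was not given in the sources used here.

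The 12 libraries summed to between 680768 and 767790 FPKM, and their relative depth ran from 0.674 to 1 of that of CY84 replicate 1. Replicates correlated at 0.936 (Fix T2) to 0.982 (CY84) over the tested genes. The Fix T2 values lay low as a whole: the median tested gene was 0.33 lower than in CY84 on the log2(FPKM + 1) scale, against 0.11 lower in Fix T1, 0.26 lower in Fix T3 and 0.12 higher in Fix T4. Of 7 leaf markers, 6 were above 100 FPKM in every library, and all 7 summed to 31382 to 67343 FPKM. The remaining leaf marker, LOC_Os01g52240, lay between 0 and 9.15 FPKM. The 5 anther markers summed to at most 1.54 FPKM and the 2 seed markers to at most 1.88 FPKM. The anther markers EAT1 and C6 were listed at 0 in all libraries, as was the root marker LSI2. LHY, a clock gene whose level depends on the time of day, had 8 values between 11.7 and 53.3 FPKM in Fix T1 to T4, all below its 4 values in Fix T0 and CY84 (57.3 to 68.2 FPKM). The clock genes PRR1 and GI overlapped instead, at 18.0 to 45.5 and 118 to 232 FPKM in Fix T1 to T4. Over Fix T0 and CY84, PRR1 had 36.0 to 46.2 FPKM and GI had 171 to 193 FPKM. The part of sampling time in the results below was not tested.

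ICS1, the isochorismate synthase gene, was the most strongly expressed of the 6. It stood at 61.0 and 71.5 FPKM in Fix T0, 68.3 and 69.3 in Fix T1, 85.4 and 60.9 in Fix T2, 52.4 and 57.6 in Fix T3, and 83.3 and 64.5 in Fix T4, against 50.3 and 64.7 FPKM in CY84. The 10 Fix libraries as a whole overlapped with the CY84 pair, although both Fix T1 libraries lay above it. CY84 replicate 1 was lowest of all 12, and Fix T2 replicate 1 was highest. The mean was 67.4 ± 10.6 FPKM in Fix (SD, n = 10) and 57.5 ± 10.2 FPKM in CY84 (SD, n = 2). ICS1 differed between the mean of the 5 Fix generations and CY84 by 0.22 on the log2(FPKM + 1) scale (SE 0.19, 95% interval -0.20 to 0.64, limma adjusted p = 0.608). In leaf tissue, fewer cells of a type and less RNA per cell cannot be told apart, here and in all results that follow.

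**Figure D1:**
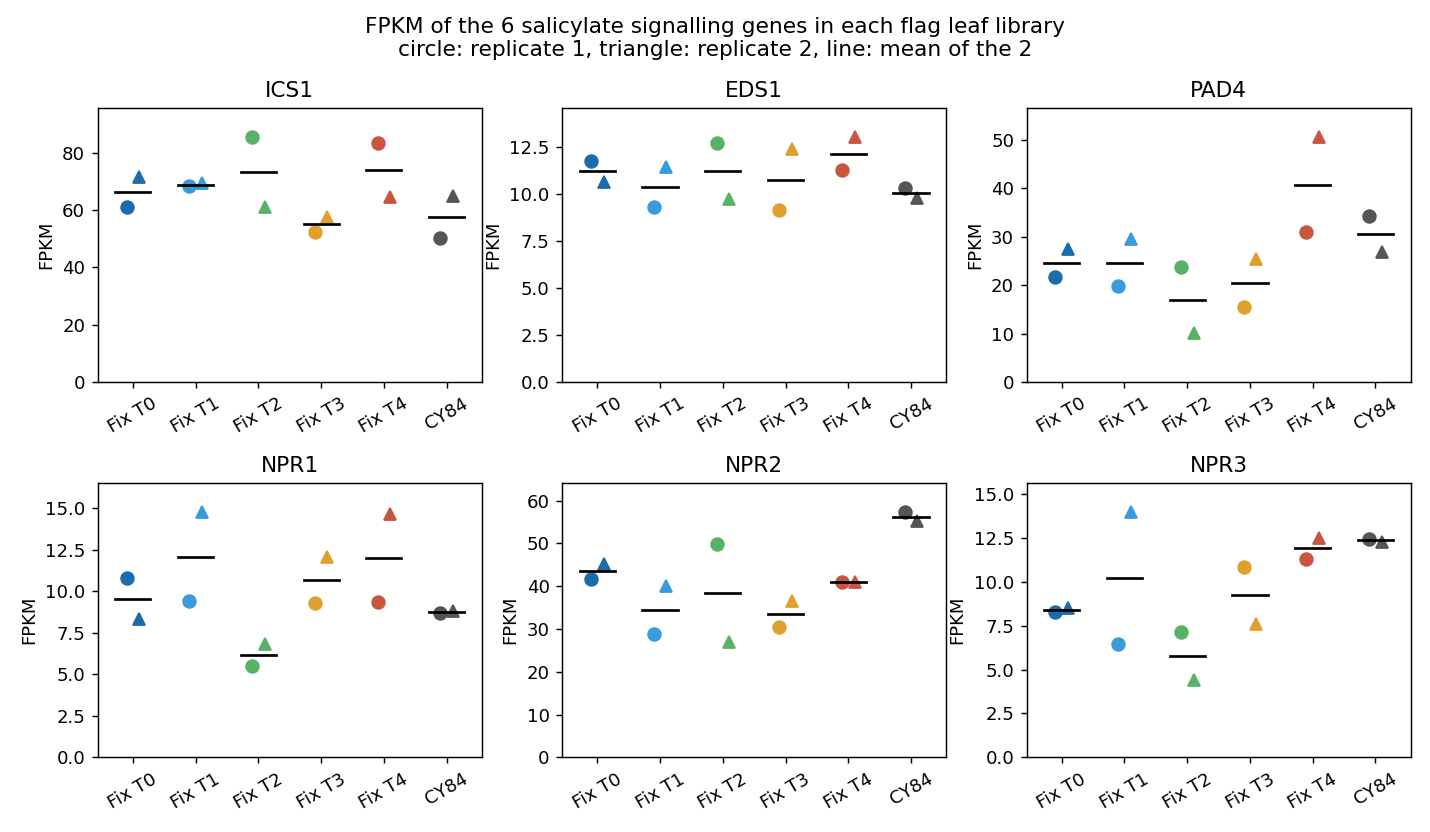
FPKM (y axis, from 0) of each of the 6 genes in the 12 flag leaf libraries, with the groups Fix T0 to T4 and CY84 along the x axis, a circle for replicate 1, a triangle for replicate 2 and a line at the mean of the pair. NPR2 is highest in the 2 CY84 libraries (57.2 and 55.2 FPKM), while PAD4 spreads between 10.2 and 50.5 FPKM within Fix.

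EDS1, the lipase-like partner shared by the EDS1 complexes, varied least among the 6. It had 11.7 and 10.7 FPKM in Fix T0, 9.31 and 11.4 in Fix T1, 12.7 and 9.71 in Fix T2, 9.15 and 12.4 in Fix T3, and 11.3 and 13.03 in Fix T4, against 10.3 and 9.76 FPKM in CY84. The Fix values lay on both sides of the CY84 pair, and the highest Fix library was 1.42 times the lowest. Between the Fix mean and CY84, EDS1 differed by 0.13 (SE 0.20, 95% interval -0.31 to 0.57, limma adjusted p = 0.789). In Fix T2 the EDS1 difference was 0.13 as deposited and 0.56 after rescaling of the libraries.

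PAD4, which in Arabidopsis binds EDS1, varied most among the 6. It had 21.6 and 27.5 FPKM in Fix T0, 19.7 and 29.5 in Fix T1, 23.7 and 10.2 in Fix T2, 15.5 and 25.4 in Fix T3, and 30.9 and 50.5 in Fix T4, against 34.2 and 26.8 FPKM in CY84. The lowest value came from Fix T2 and the highest from Fix T4, and replicates of 1 group differed by 0.63 on average on the log2 scale, against 0.38 for the median tested gene. Averages were 25.5 ± 10.9 FPKM in Fix (SD, n = 10) and 30.5 ± 5.28 FPKM in CY84 (SD, n = 2). PAD4 differed by -0.35 between the Fix mean and CY84 (SE 0.31, 95% interval -1.02 to 0.32, limma adjusted p = 0.615). The difference of Fix T2 from CY84 was -0.91 (SE 0.40) with a limma adjusted p of 0.180, and -0.47 after rescaling of the libraries by median-of-ratios factors. Without Fix T2 replicate 1 that adjusted p was 0.0371, which leaves 1 Fix T2 library, the one with the lowest PAD4 level of all, and assumes that it varies like the other groups.

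NPR1, the coactivator at the centre of the salicylate response, lay near 10 FPKM. Its values were 10.8 and 8.32 FPKM in Fix T0, 9.41 and 14.8 in Fix T1, 5.51 and 6.83 in Fix T2, 9.30 and 12.1 in Fix T3, and 9.39 and 14.7 in Fix T4, against 8.71 and 8.81 FPKM in CY84. Fix T2 held the 2 lowest values, and 1 library each of Fix T1 and T4 held the 2 highest. Fix averaged 10.1 ± 3.04 FPKM (SD, n = 10) and CY84 8.76 ± 0.0668 FPKM (SD, n = 2). The difference of the Fix mean from CY84 was 0.14 (SE 0.24, 95% interval -0.38 to 0.65, limma adjusted p = 0.808).

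NPR2, a relative of NPR1, was lower in each Fix library than in both CY84 libraries on the deposited scale. It had 41.7 and 45.2 FPKM in Fix T0, 28.9 and 39.9 in Fix T1, 49.7 and 26.9 in Fix T2, 30.4 and 36.5 in Fix T3, and 41.0 and 41.0 in Fix T4, against 57.2 and 55.2 FPKM in CY84. The 10 Fix values did not overlap with the CY84 pair, as for 4.71% of all tested genes that were lower in Fix without overlap and 2.73% that were higher. NPR2 averaged 38.1 ± 7.38 FPKM in Fix (SD, n = 10) and 56.2 ± 1.43 FPKM in CY84 (SD, n = 2). On the log2 scale the limma difference was -0.57 (SE 0.22, 95% interval -1.05 to -0.09), which as a ratio of FPKM + 1 is 0.673. This difference did not pass correction over all genes (limma unadjusted p = 0.0240, adjusted p = 0.317). The single generations differed from CY84 by -0.36 (Fix T0), -0.71 (T1), -0.60 (T2), -0.74 (T3) and -0.45 (T4), each with an SE of 0.29 and each set against the same 2 CY84 libraries. When limma weighted the libraries by their estimated quality, the adjusted p of the Fix mean was 0.0230, and over the 18 alternatives tried it ran from 0.0230 to 0.940. Rescaling of the libraries by median-of-ratios factors left a difference of -0.41 with an adjusted p of 0.362 for the Fix mean, and -0.14 for Fix T2. On that rescaled scale, in an alternative added after seeing the data, Fix T2 replicate 1 stood at 55.3, above the 52.0 and 48.4 of CY84, and the other 9 Fix libraries stood at 31.7 to 43.6, below both. The absence of overlap for NPR2 therefore held for the deposited scale only, and 3.56% of tested genes were lower without overlap after rescaling.

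NPR3, the third of the family, was close to NPR1 in level. It had 8.26 and 8.49 FPKM in Fix T0, 6.46 and 13.9 in Fix T1, 7.13 and 4.43 in Fix T2, 10.8 and 7.59 in Fix T3, and 11.3 and 12.5 in Fix T4, against 12.4 and 12.3 FPKM in CY84. Fix T2 replicate 2 was lowest, and only 1 library each of Fix T1 and Fix T4 exceeded the CY84 pair. The averages were 9.09 ± 2.96 FPKM in Fix (SD, n = 10) and 12.3 ± 0.124 FPKM in CY84 (SD, n = 2), and the difference of the Fix mean was -0.46 (SE 0.27, 95% interval -1.04 to 0.12, limma adjusted p = 0.464). NPR3 in Fix T2 had the largest single difference of any member, -1.01 from CY84 (SE 0.34, 95% interval -1.75 to -0.26, limma adjusted p = 0.119). Over 18 alternatives the adjusted p of this difference ran from 0.0440 to 0.480, and it was under 0.05 in 2 of them, each without 1 of the Fix T1 libraries. With rescaled libraries it was -0.59.

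Set against CY84, 0 of the 6 members passed in Fix T0, where 0.0901% of all tested genes did. The count was also 0 of 6 in Fix T1 (background 0.503%), Fix T2 (0.159%), Fix T3 (1.77%), Fix T4 (1.88%) and the Fix mean (0.747%). These 6 comparisons share the CY84 libraries. At an unadjusted limma p under 0.05, the count of members was 0 in Fix T0 (background 3.87%), 1 in Fix T1 (9.56%), 2 in Fix T2 (25.6%), 1 in Fix T3 (22.3%), 0 in Fix T4 (10.3%) and 1 for the Fix mean (13.1%). NPR2 was the member concerned in Fix T1, in Fix T3 and for the Fix mean, and NPR3 and PAD4 were those in Fix T2. The smallest adjusted p of any member was 1 in Fix T0, 0.437 in Fix T1, 0.119 in Fix T2, 0.170 in Fix T3, 0.706 in Fix T4 and 0.317 for the Fix mean.

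The median difference of the 6 genes from CY84 was -0.10 in Fix T0, where that of all tested genes was -0.05. It was -0.14 in Fix T1 (all genes -0.11), -0.53 in Fix T2 (-0.33), -0.23 in Fix T3 (-0.26), 0.30 in Fix T4 (0.12) and -0.11 for the Fix mean (-0.13). The direction was mixed among the members: for the Fix mean, ICS1, EDS1 and NPR1 had positive differences and PAD4, NPR2 and NPR3 negative ones. Rescaling, which brought the median of all genes to between -0.01 and 0.03 in these comparisons, left the signs of the 6 Fix mean differences as they were, with 0.39 for ICS1, 0.28 for EDS1, -0.19 for PAD4, 0.29 for NPR1 and -0.31 for NPR3 beside the -0.41 of NPR2. ICS1 in Fix T3 was -0.05 as deposited and 0.26 after rescaling.

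**Figure D2:**
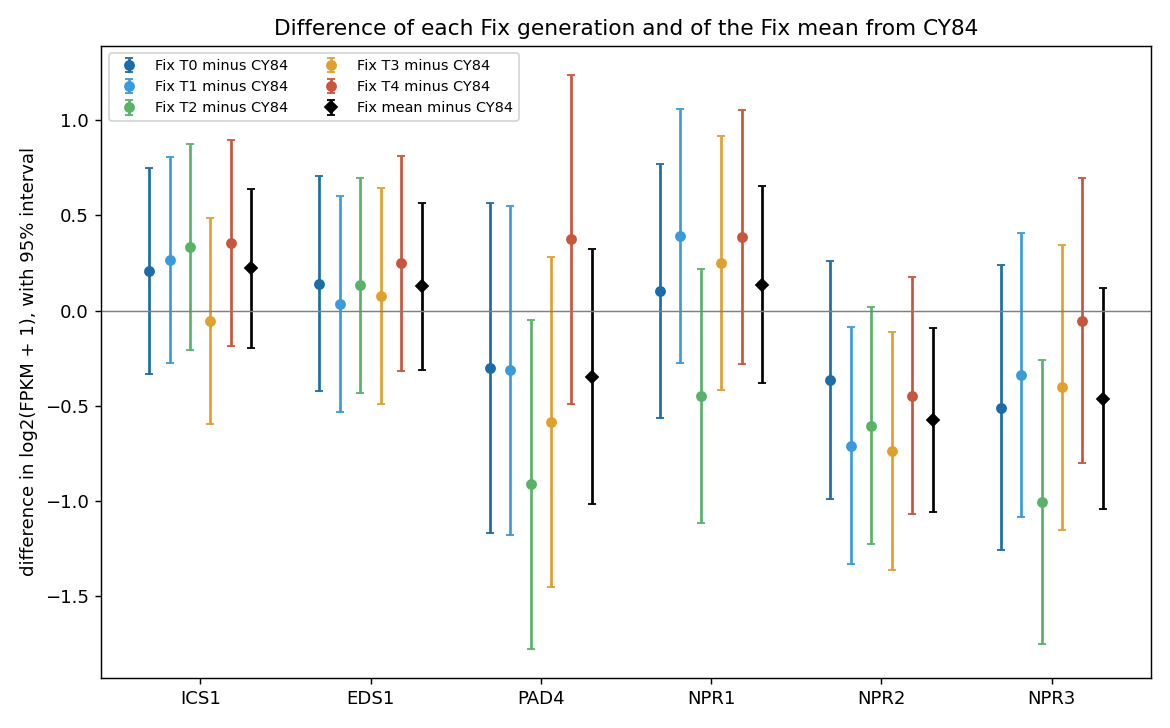
Difference from CY84 in log2(FPKM + 1) (y axis) for each of the 6 genes (x axis), with a circle for each of Fix T0 to T4, a black diamond for the mean of the 5 Fix generations and bars for the 95% interval of the limma fit. NPR2 is below 0 in all 5 generations (-0.36 to -0.74), EDS1 is positive and at most 0.25 on this deposited scale, and NPR3 and PAD4 reach their lowest values in Fix T2 (-1.01 and -0.91).

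The 2 libraries of a generation stood clear of the 2 CY84 libraries for 3 of 6 members in Fix T0, where they did so for 44.6% of tested genes in either direction. NPR2 and NPR3 were the lower ones and EDS1 was the higher one. In Fix T1 there were 3 of 6 (background 40.5%), with NPR2 lower and NPR1 and ICS1 higher. In Fix T2, NPR1, NPR2, NPR3 and PAD4 were all lower without overlap, 4 of 6 members (background 58.8%, and 47.7% lower). In Fix T3 there were again 4 (background 64.2%, and 46.6% lower), with NPR2, NPR3 and PAD4 lower and NPR1 higher, and in Fix T4 there were 3 (background 50.7%), with NPR2 lower and NPR1 and EDS1 higher. NPR2 was the member found in all 5 of these lists, and ICS1 stood apart from CY84 in Fix T1 alone. After rescaling, the count was 4 of 6 in Fix T0 (background 44.5%), 4 in Fix T1 (44.9%), 3 in Fix T2 (54.4%), 4 in Fix T3 (60.6%) and 4 in Fix T4 (49.9%). EDS1, higher in Fix, was then the member found in all 5, with rescaled values of 9.50 to 14.1 in the 10 Fix libraries against 9.39 and 8.55 in CY84 (4.44% of tested genes were higher without overlap), and NPR2 was absent from the list of Fix T2.

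Within the edited line, the seed generations T1 to T4 were set against Fix T0, and 0 of 6 members passed (background 0.207%), nor did any have an unadjusted limma p under 0.05 (background 8.64%). The differences of the seed mean from Fix T0 were -0.26 for NPR2, -0.06 for PAD4, -0.02 for EDS1, 0.02 for ICS1, 0.04 for NPR1 and 0.06 for NPR3. The 95% intervals of these 6 differences lay between -0.75 and 0.65, and the smallest limma adjusted p was 0.729. The 8 seed-grown libraries overlapped with the 2 Fix T0 libraries for every member, whereas 1.76% of tested genes were higher and 2.11% lower in all 8. Per generation from T0 to T4, the linear slopes ran from -0.02 for NPR2 to 0.11 for PAD4 (SE 0.09), with intervals between -0.16 and 0.30, and 0 of 6 passed, nor was any unadjusted limma p under 0.05 (backgrounds 0.954% and 7.80%). In the test of any difference among the 6 groups, 0 of 6 members passed or had an unadjusted limma p under 0.05 (backgrounds 1.91% and 23.2%), with the smallest limma adjusted p, 0.268, for PAD4.

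Ordered by group mean, PAD4 ran from 40.7 FPKM in Fix T4 through CY84 (30.5), Fix T1 (24.6), Fix T0 (24.6) and Fix T3 (20.4) to 17.0 FPKM in Fix T2, and libraries of neighbouring groups overlapped at each of the 5 steps. The same held for EDS1 and ICS1, whose highest group was 1.21 and 1.34 times the lowest. For NPR1 and NPR3, 4 of the 5 steps overlapped, and the step without overlap was the one down to Fix T2 (6.17 FPKM for NPR1, 5.78 for NPR3). For NPR2, CY84 stood apart from Fix T0 and Fix T0 from Fix T4, and the other 3 steps overlapped. The ratio of the highest to the lowest group mean was 1.68 for NPR2, 1.96 for NPR1, 2.13 for NPR3 and 2.40 for PAD4.

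The 6 genes covered much of the range of expression and of spread. ICS1 had a higher mean level than 92.3% of tested genes, NPR2 than 87.6%, PAD4 than 81.9%, EDS1 than 64.4%, NPR1 than 61.9% and NPR3 than 61.3%. The SD of log2(FPKM + 1) over the 12 libraries was 0.16 for EDS1, and 1.09% of tested genes had a lower one. It was 0.23 for ICS1 (8.27%), 0.34 for NPR2 (34.0%), 0.37 for NPR1 (42.2%), 0.44 for NPR3 (58.5%) and 0.56 for PAD4 (79.4%), and 0.40 for the median gene. Rescaling by median-of-ratios factors moved these places: to 9.31% for EDS1, 33.8% for ICS1, 21.9% for NPR2, 30.3% for NPR1, 25.6% for NPR3 and 51.3% for PAD4. EDS1 was the member with the lowest and PAD4 the one with the highest spread in both cases.

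**Figure D3:**
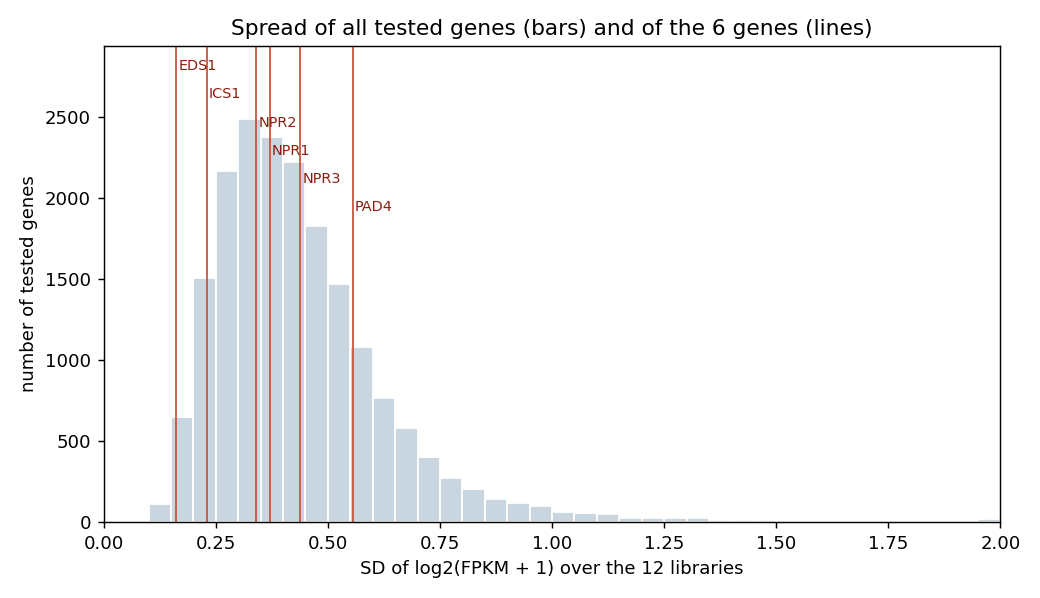
Number of tested genes (y axis) by the SD of log2(FPKM + 1) over the 12 libraries (x axis), with a vertical line for each of the 6 genes and with the 18 genes of an SD of 2 or more in the last bar. EDS1 (0.16) lies at the lower edge of the distribution, ICS1 next to it, and PAD4 (0.56) to the right of the median gene (0.40).

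Relations between members were measured over the 12 libraries, together with those of each member to the downstream genes WRKY45, PR1a, PR1b and PBZ1. This family held 39 relations, tested by permutation with 100000 resamples and Benjamini-Hochberg adjustment, and 0 of them passed. Libraries were permuted without regard to group, although those of a group are not independent. The permutation p-values, here and for NPR2 with PBZ1 below, can therefore be too small. An unadjusted permutation p under 0.05 was found for 7 by Pearson's r and 5 by Spearman's rho. NPR3 and PAD4 were high and low in similar libraries (Pearson r = 0.73, permutation p = 0.00608, adjusted p = 0.119, Spearman rho = 0.80, adjusted permutation p = 0.105). Without the 2 libraries farthest in NPR3, Fix T1 replicate 1 and Fix T2 replicate 2, r was 0.44. Without Fix T3 replicate 1 alone, r was 0.85 with an adjusted permutation p of 0.0144. With rescaled libraries, r was 0.35 (permutation p = 0.262) and rho was 0.27. PAD4 and EDS1, whose Arabidopsis products bind each other, had r = 0.59 (adjusted permutation p = 0.241), and r was -0.25 once libraries were rescaled, so the sign depended on the scaling. Other relations were stronger after rescaling. NPR1 with NPR2 went from r = -0.08 to -0.74, NPR3 with EDS1 from 0.16 to -0.67 and EDS1 with ICS1 from 0.37 to 0.67. Each had an adjusted permutation p of 0.216 after rescaling, where 0 of the 39 relations passed.

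NPR2 ran opposite to PBZ1, a PR10-type defence gene also known as a marker of probenazole treatment. Their r was -0.77 (permutation p = 0.00345, adjusted p = 0.119) and rho was -0.76, and r was -0.79 without the 2 libraries farthest in NPR2. Without Fix T2 replicate 1, r was -0.85 with an adjusted permutation p of 0.0413. With rescaled libraries, r was -0.56 (permutation p = 0.0609) and rho was -0.48. The groups enter into this relation, since CY84 had the 2 highest NPR2 and the 2 lowest PBZ1 levels. Among the 10 Fix libraries alone r was -0.57 for PBZ1, -0.34 for PR1b and -0.25 for PR1a, against -0.77, -0.68 and -0.61 over all 12, and none of the 3 passed a permutation test there.

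**Figure D4:**
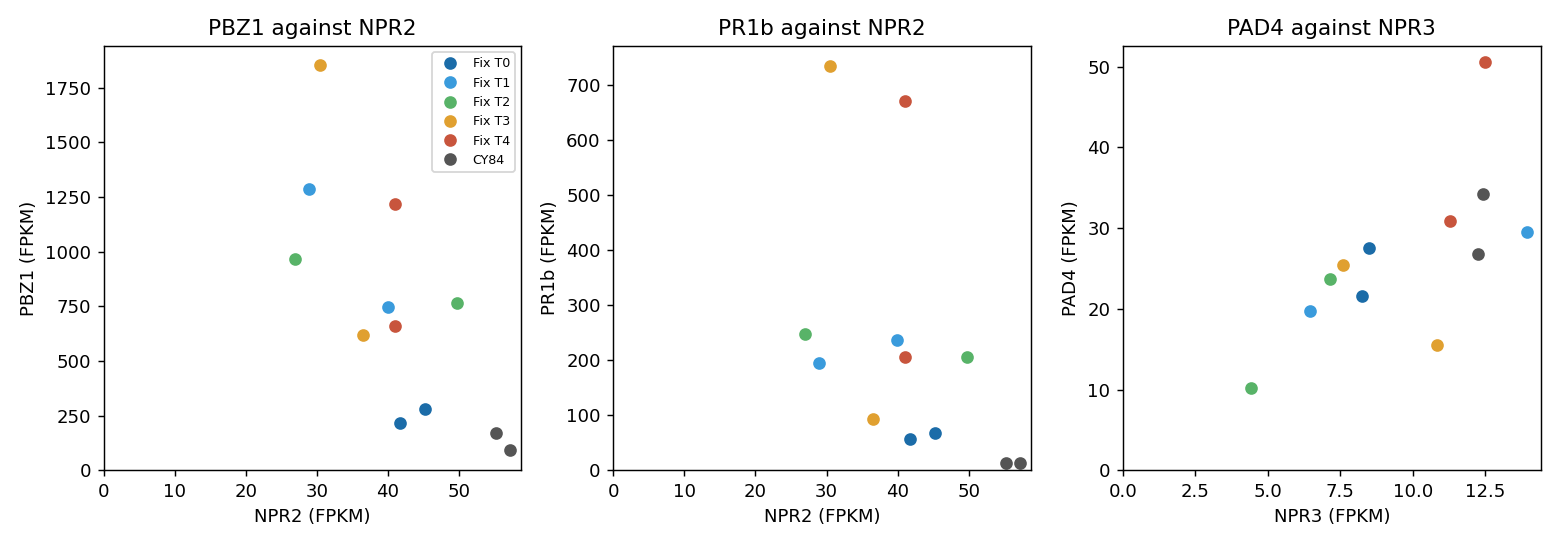
Pairs of genes plotted against each other in FPKM on linear axes, with 1 point per library coloured by group. PAD4 and NPR3 go up together over the libraries as deposited (r = 0.73 on the log2 scale, 0.35 after rescaling), and PBZ1 is lowest where NPR2 is highest, in the 2 CY84 libraries (r = -0.77, and -0.56 after rescaling).

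For each member the tested gene with the most similar pattern over the 12 libraries was found by Pearson's r of log2(FPKM + 1). It was LOC_Os05g36160 for NPR1 (r = 0.945), LOC_Os05g07300 for NPR2 (0.953), LOC_Os07g19530 for NPR3 (0.963), LOC_Os03g61140 for PAD4 (0.966), LOC_Os03g63480 for EDS1 (0.919) and LOC_Os02g35950 for ICS1 (0.907). Each is the highest over all tested genes, and none of the 6 was another member. The mean levels of these most similar genes were, in the same order, 1.21, 1.95, 3.65, 9.93, 228 and 44.2 FPKM. The search used the deposited scale and was not repeated with rescaled libraries.

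A list of 28 other genes entered under salicylate synthesis, turnover, NPR partners and relatives, and downstream response was read beside the members. It was chosen with earlier results of these data known, so its counts beside the shares of all tested genes are no test of the pathway. Of the 28 genes, 24 were tested. Against CY84, 5 rose in Fix T1, 7 in Fix T3, 8 in Fix T4 and 6 for the Fix mean, where 0.376%, 1.10%, 1.68% and 0.541% of all tested genes rose. In Fix T0 and Fix T2 the limma test called 0 of the 24 (0.0583% and 0.0636% of all tested genes rose), with 7 and 11 at an unadjusted p under 0.05 in either direction (3.87% and 25.6% of all tested genes), and none fell in any of the 6 comparisons. Against Fix T0, 3 rose in the seed generations (0.143% of all tested genes), and 6 rose along the linear trend (0.890%). The 4 tested genes entered as NPR partners and relatives gave 0 calls in these comparisons, in that of the seed generations with Fix T0 and in the linear trend. Among them were TGA2.1, the TGA factor that binds rice NPR1, and LOC_Os01g72020, entered as a relative. Gene names and roles in this list were paired with identifiers by hand, and TGA2.1, WRKY71 and PBZ1 were found in the annotation used, whereas WRKY45, PR1a and PR1b were not.

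On the synthesis side, 2 of the 8 tested genes entered as phenylalanine ammonia-lyases rose for the Fix mean, and ICS1 did not pass in any comparison. LOC_Os02g41630 had 149.9 and 89.5 FPKM in Fix T0, 280.0 and 303 in Fix T1, 64.6 and 58.1 in Fix T2, 774 and 495 in Fix T3, and 272 and 396 in Fix T4, against 63.6 and 42.7 FPKM in CY84. Fix T2 lay near CY84 and Fix T3 was highest. Its Fix mean was 2.00 above CY84 on the log2 scale (SE 0.25, limma adjusted p = 0.00320), where the ICS1 difference was 0.22. The difference between these genes was not tested. The neighbouring LOC_Os02g41680 was 2.34 above CY84 (SE 0.29, limma adjusted p = 0.00320). Its linear slope was 0.64 per generation (SE 0.08, limma adjusted p = 0.00501), without a steady rise. Its group means were 7.19 FPKM in Fix T0, 26.9 in T1, 4.63 in T2, 96.7 in T3 and 40.4 in T4, against 3.31 in CY84. These neighbours are related genes, and reads shared among them could be split between them in a way not given in the sources used here. Of 9 tested synthesis genes, 2 rose for the Fix mean, 3 in Fix T3, 3 in Fix T4 and 0 in Fix T2. LOC_Os04g43760, also entered as a phenylalanine ammonia-lyase and named after its values were seen, had a Fix mean difference of -0.53 (SE 0.31, limma adjusted p = 0.478).

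LOC_Os04g49194, entered under salicylate turnover, had 5.57 and 3.78 FPKM in Fix T0, 20.2 and 20.4 in Fix T1, 5.39 and 6.99 in Fix T2, 37.2 and 21.1 in Fix T3, and 15.3 and 17.2 in Fix T4, against 2.91 and 3.35 FPKM in CY84. All 10 Fix values were above both CY84 values, as for 2.73% of all tested genes. The Fix mean was higher by 1.70 (SE 0.24, limma adjusted p = 0.00665), and the seed mean was above Fix T0 by 1.57 (SE 0.24, limma adjusted p = 0.0238).

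Downstream, 3 of the 8 tested genes rose for the Fix mean: PR1a, a PR gene, by 2.75 (SE 0.53, limma adjusted p = 0.0350, 0.0551 with a replicate block and 0.000586 to 0.541 over the 18 alternatives), PR1b by 3.84 (SE 0.56, adjusted p = 0.00942) and PBZ1 by 2.54 (SE 0.38, adjusted p = 0.0108). In CY84, PR1a was near the floor at 0.486 and 0.502 FPKM, PR1b had 12.6 and 13.0 and PBZ1 had 90.4 and 169. Replicates were far apart in Fix T3, with 29.9 and 6.74 FPKM for PR1a, 735 and 92.9 for PR1b and 1853 and 621 for PBZ1. They were closer in Fix T0, with 3.95 and 3.91, 57.5 and 67.9, and 214 and 282 FPKM. WRKY45, a transcription factor that acts beside NPR1 in the rice salicylate pathway, did not pass for the Fix mean (0.07, SE 0.33, limma adjusted p = 0.929) but rose along the generations by 0.46 per generation (SE 0.10, limma adjusted p = 0.0471). It had 30.4 and 28.1 FPKM in Fix T0, 27.6 and 65.2 in Fix T1, 24.9 and 41.4 in Fix T2, 128 and 53.9 in Fix T3, and 103 and 110.0 in Fix T4, against 47.7 and 49.9 FPKM in CY84. WRKY71, a WRKY factor of the defence response, rose by 1.55 in Fix T4 (SE 0.26, limma adjusted p = 0.0108). Its slope of 0.46 per generation passed as well (SE 0.06, limma adjusted p = 0.00442). The group means of WRKY71 were 6.38 FPKM in Fix T0, 11.2 in T1, 12.3 in T2, 12.9 in T3 and 33.2 in T4, against 10.9 in CY84. The steps from T1 to T3 were thus small beside those from T0 to T1 and from T3 to T4.

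Some list genes had negative differences that did not pass, and 3 of them were named after their values were seen. WRKY76, another WRKY factor of the list, had 0.431 and 3.81 FPKM in Fix T0, 1.03 and 0.757 in Fix T1, 1.52 and 7.69 in Fix T2, 17.1 and 2.45 in Fix T3, and 10.2 and 3.35 in Fix T4, against 18.2 and 15.9 FPKM in CY84. Only Fix T3 replicate 1 reached the level of the CY84 pair. Its Fix mean difference was -2.11 (SE 0.62, limma unadjusted p = 0.00507, adjusted p = 0.180), and over 18 alternatives the adjusted p ran from 0.0150, with library weights, to 0.940. The Fix mean differences were -0.68 for WRKY62 (SE 0.28, limma adjusted p = 0.335) and -0.85 for the partner gene LOC_Os01g03940 (SE 0.33, limma adjusted p = 0.319, with a range of 0.0202 to 0.940 over the alternatives). WRKY62 was close to the floor, with 0 to 1.20 FPKM in Fix against 0.464 and 1.62 FPKM in CY84.

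The calls against CY84 leaned on its pair of libraries. Of the 6 list genes that rose for the Fix mean, 0 passed without CY84 replicate 2 and 2 passed without CY84 replicate 1, with CY84 then represented by 1 library that is assumed to vary like the other groups. The WRKY45 slope lost its call in 13 alternatives. The 6 members themselves stayed at 0 calls for the Fix mean in both of those fits.

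**Figure D5:**
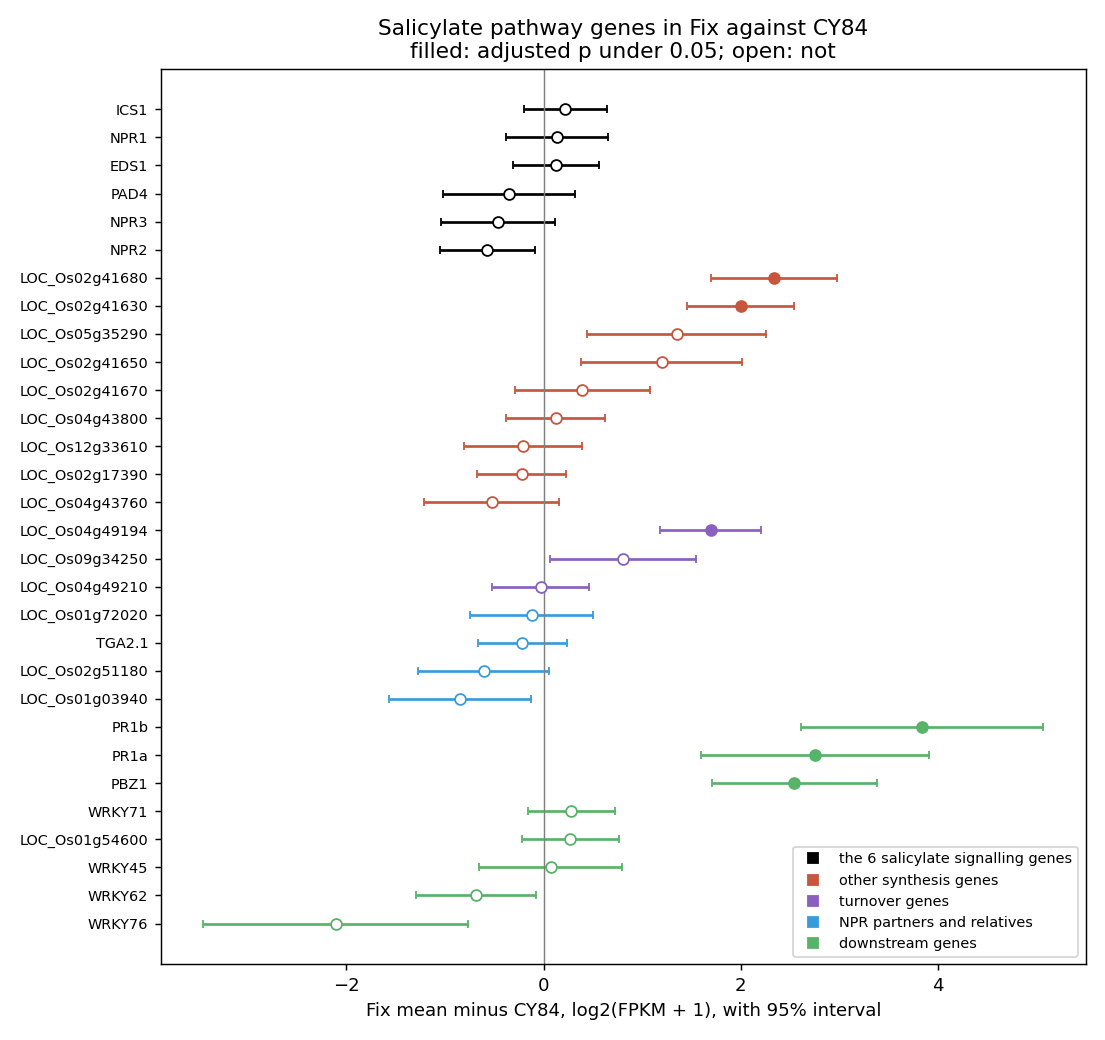
Difference of the Fix mean from CY84 in log2(FPKM + 1) (x axis, with 95% intervals) for the 6 members and the 24 tested list genes (y axis), coloured by role and filled where the limma adjusted p was under 0.05. The members lie between -0.57 and 0.22 and are all open, while PR1b (3.84), PR1a (2.75), PBZ1 (2.54) and LOC_Os02g41680 (2.34) lie farthest to the right and WRKY76 (-2.11, open) farthest to the left.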

How the data were processed

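The authors deposited 1 table of FPKM with a column per flag leaf library, 2 for each of 6 groups, and 12 libraries were used. Among the tools in the submitters' processing notes are the aligner HISAT2 2.1.0, the transcript assembler StringTie 1.3.4d, the read counter featureCounts 1.6.4 and the trimmer Trimmomatic 0.39. Their order, the genome build and the use of strand were not given in the sources used here. No use was made of 20 unnamed columns, and the 12 bisulfite samples are not analysed here. Read counts were not used, so absolute depth is unknown, and relative depth was read from low FPKM values.

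Of 55801 genes, 26866 were at 0 in all libraries. Genes with at least 1 FPKM in at least 2 libraries were taken as log2(FPKM + 1), which understates changes of low genes, and fitted with limma 3.58.1 (R 4.3.3) using a trended prior and 1 mean for each of the 6 groups (6 residual degrees of freedom). Passing means an adjusted p (Benjamini-Hochberg over all tested genes) under 0.05. The 9 comparisons gave 54 tests of members. The script was tested on simulated data. The labels do not say that replicates are separate plants, so p-values measure the spread between these samples, which may be technical. Equal replicate numbers in different groups do not mark paired libraries.

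The members and lists were chosen with earlier results of these data known. All 6 members were named, with list genes that passed (at most 4 each way in a comparison, by size), the downstream genes PR1a, PR1b, PBZ1 and WRKY45, and the most similar gene of each member. The table holds identifiers and no names. The annotation used (assembly ASM3414082v1) holds NPR1, NPR2 and NPR3 on the chromosome and in the order of their identifiers, under other names of the family. PAD4, EDS1 and ICS1 were taken as the series' list names them. The alternatives were another pseudocount, no filter, median-of-ratios rescaling, a replicate block, library weights, compared groups only, and leaving out each library or the 4 libraries of Fix T1 and T2. Correlations within Fix alone and the overlap of rescaled libraries were added after seeing the data.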

Additional observations from a re-analysis of the deposited data

How the results depend on the processing

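The members gave 0 calls in each of the 9 comparisons, and this count stayed at 0 with a pseudocount of 0.1, without the filter, with rescaled libraries and with a replicate block. NPR2 accounts for 1 call in Fix T3 and 1 for the Fix mean with library weights, and for 1 in Fix T3 without the Fix T1 and T2 libraries. Leaving out 1 library gave 0 to 2 member calls in Fix T2 and 0 in the other comparisons. NPR3 was the member called in Fix T2 without either Fix T1 library (adjusted p = 0.0440 and 0.0446), and NPR2 (0.0333) and PAD4 (0.0371) were those called without Fix T2 replicate 1. The cause of these changes was not tested. With 2 libraries a group, the 95% interval of a single generation's difference spanned about 1 or more on the log2 scale, which limits what can be detected, and absolute depth is unknown.

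Counts over all tested genes moved far more. For Fix T0 they were 33 without the filter, 214 with library weights, 36 without Fix T1 and T2 and 37 with the compared groups only, against 17, and 5 to 20 when 1 library was left out. For Fix T1 they were 55, 47 and 28 without the filter, with weights and with the compared groups only, against 95 (14 to 544 when 1 library was left out). For Fix T2 they were 16 without the filter and 63 with weights, against 30 (5 to 2610). For Fix T3 they were 167 without the filter, 197 with the replicate block, 2966 with weights, 3316 without Fix T1 and T2 and 1825 with the compared groups only, against 334 (22 to 1128). For Fix T4 they were 220, 1328, 718 and 1083 without the filter, with weights, without Fix T1 and T2 and with the compared groups only, against 355 (34 to 502). For the Fix mean they were 93 without the filter, 2052 with weights and 508 without Fix T1 and T2, against 141 (10 to 357). For the seed mean against Fix T0 they were 64 with rescaling, 216 with weights, 455 without Fix T1 and T2 and 21 with the compared groups only, against 39 (4 to 106). For the linear trend they were 56 with a pseudocount of 0.1, 73 without the filter, 374 with weights, 449 without Fix T1 and T2 and 106 with the compared groups only, against 180 (13 to 452). For any difference they were 222 with a pseudocount of 0.1, 177 without the filter, 220 with the replicate block and 1735 with weights, against 360 (109 to 2458). The replicate numbers did not pair the libraries (r over 0.1 in 2 of 15 pairs of groups), and the block ended the PR1a call for the Fix mean (adjusted p = 0.0551). Rescaling changed the share of higher calls from 40.0% to 66.7% in Fix T2, from 62.0% to 79.7% in Fix T3, from 64.7% to 52.6% in Fix T0 and from 69.2% to 79.7% for the seed mean.

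Among the 24 tested list genes, calls in Fix T0 were 2 with weights and 1 with the compared groups only, against 0. In Fix T1 there were 3 without the filter, with rescaling and with weights, against 5 (0 to 5 when 1 library was left out). In Fix T2 there were 2 with the compared groups only, against 0 (0 to 6). In Fix T3 there were 3 without the filter and 11 with weights, without Fix T1 and T2 and with the compared groups only, against 7 (3 to 8). In Fix T4 there were 5 without the filter, against 8 (1 to 8), and for the Fix mean 3 without the filter and 12 with weights, against 6 (0 to 6). The seed mean gave 1 with a pseudocount of 0.1, 0 without the filter and with the compared groups only, and 7 without Fix T1 and T2, against 3 (0 to 4). The linear trend gave 3 with a pseudocount of 0.1 and with the compared groups only and 2 without the filter, against 6 (0 to 7), and any difference gave 4 without the filter, against 8 (4 to 12). Of the relations, 0 to 1 passed when 1 library was left out.

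Small differences changed sign. With rescaling, ICS1 in Fix T3 was 0.26, the seed mean against Fix T0 was 0.065 for PAD4 and 0.10 for EDS1, and the correlation of PAD4 with EDS1 was -0.25. Without Fix T1 and T2, the seed mean was 0.20 for PAD4, 0.020 for EDS1 and -0.056 for ICS1, and the ICS1 slope was 0.0084. Leaving out 1 library, the difference from CY84 ran from -0.067 to 0.27 for NPR1 in Fix T0, from -0.0997 to 0.17 for EDS1 and -0.84 to 0.16 for NPR3 in Fix T1, from -0.045 to 0.31 for EDS1 in Fix T2, from -0.23 to 0.12 for ICS1 and -0.12 to 0.28 for EDS1 in Fix T3, from -0.12 to 0.016 for NPR3 in Fix T4, and from -0.050 to 0.20 for WRKY45 in the Fix mean. The seed mean ran from -0.083 to 0.045 for EDS1, -0.096 to 0.13 for ICS1, -0.13 to 0.21 for NPR1, -0.23 to 0.11 for PAD4 and -0.066 to 0.18 for NPR3. The slopes ran from -0.039 to 0.034 for ICS1, -0.042 to 0.0034 for NPR2 and -0.017 to 0.10 for NPR1. The cause of these changes was not tested.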
